A study of Homo sapiens with 6 samples.

Results

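The genes described here are the AP-1 and EGR immediate early transcription factors: FOS, FOSB, FOSL1 and FOSL2, JUN, JUNB and JUND, and EGR1, EGR2 and EGR3. They were chosen by name, as the probe sets of the array annotated to exactly 1 of these 10 symbols. The rule found 21 probe sets of 54675, for 9 of the 10 genes. FOS, FOSB, FOSL1, JUNB and EGR3 had 1 probe set each, EGR1 had 3, JUN and JUND had 4 each, and FOSL2 had 5. The rule matched no probe set to EGR2, which was not analysed here.

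The cells were HMLE, human mammary epithelial cells made immortal in culture and kept in a medium with serum, insulin, hydrocortisone and EGF. EGF is itself an inducer of these genes, and it was part of the medium of every group. In all, 6 groups of 1 Affymetrix Human Genome U133 Plus 2.0 array each were compared. The HMLE_ctrl line had been infected with a pBabe-shGFP retrovirus (short hairpin RNA against GFP) and the HMLE_Twist line with a pBabe-Twist retrovirus, which carries the transcription factor Twist. Both lines are named here as the control line and the Twist line. Each line received the solvent DMSO or the small molecule Cmp302 at 1 of 2 levels. The labels disagree on these levels. By the titles and the protocol they were 5 µM and 10 µM, both lasting 6 h. By the source names and the treatment tags of the same arrays the concentration was 2 µM throughout, and the exposure lasted 4 h on one array of each line and 8 h on the other. The 2 levels are called 5 µM and 10 µM here after the titles, and whether the higher one was a higher dose or a longer exposure cannot be told apart. The labels do not say whether a line was 1 clone or a pool of infected cells.

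AP-1 is a dimer of basic leucine zipper proteins. FOS proteins dimerise only with partners such as the JUN proteins, while JUN proteins can also pair with each other. EGR proteins are zinc finger factors that bind GC-rich sites as monomers. Most of these genes are immediate early genes: MAP kinase signalling, started by growth factors or stress, acts through ternary complex factors, SRF and CREB- and ATF-family factors already present in the cell, so that their mRNAs appear within minutes and many are lost again within hours.

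The upstream sequences of 6 members are shown because some elements through which such signals arrive can lie shortly before the start of transcription. Others can lie further upstream, outside the bases shown. Each run holds the 140 bases that end at the base before the RefSeq gene start of GRCh38.p14, written 5′ to 3′ on the strand of the gene. Capitals mark matches to the motifs searched. They are the CRE core (TGACGT, or ACGTCA on the other strand), the TATA box (TATAAA), the CArG box bound by SRF, and the AP-1-like element TGACATCA. The EGR1 stretch is chr5:138465339-138465478 on the plus strand, FOS is chr14:75278688-75278827 on the plus strand, and FOSB is chr19:45467856-45467995 on the plus strand. FOSL2 is chr2:28392718-28392857 on the plus strand, JUN is chr1:58784048-58784187 on the minus strand, and JUNB is chr19:12791346-12791485 on the plus strand.
EGR1: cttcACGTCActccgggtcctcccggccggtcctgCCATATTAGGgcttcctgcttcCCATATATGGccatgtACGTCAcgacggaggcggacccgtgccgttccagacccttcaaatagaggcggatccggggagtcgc
FOS: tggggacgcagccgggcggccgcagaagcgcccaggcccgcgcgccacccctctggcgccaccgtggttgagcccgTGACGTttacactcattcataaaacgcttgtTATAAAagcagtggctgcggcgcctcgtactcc
FOSB: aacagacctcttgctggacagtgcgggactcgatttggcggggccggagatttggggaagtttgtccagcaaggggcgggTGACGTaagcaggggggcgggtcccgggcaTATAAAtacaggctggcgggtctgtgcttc
FOSL2: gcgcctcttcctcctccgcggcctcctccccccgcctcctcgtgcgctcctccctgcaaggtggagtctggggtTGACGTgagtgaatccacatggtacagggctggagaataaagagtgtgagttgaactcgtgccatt
JUN: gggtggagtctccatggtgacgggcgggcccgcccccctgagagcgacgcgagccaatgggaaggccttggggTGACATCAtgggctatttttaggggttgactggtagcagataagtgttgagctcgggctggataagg
JUNB: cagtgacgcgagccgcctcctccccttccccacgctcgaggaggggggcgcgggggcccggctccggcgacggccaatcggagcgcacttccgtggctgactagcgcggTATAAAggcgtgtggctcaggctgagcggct

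Sequences of 7 of the members with probe sets were matched by symbol, JUND being the other one, and the 250 bases before the start were searched on both strands. The CRE core occurred in 5 of the 7 (FOS, FOSB, FOSL2, JUND and EGR1), against 7.1% of the 35116 RefSeq promoters of the same length. The CRE core and the AP-1-like element were added to the search after the sequences were seen. Their shares are therefore a description and no test of enrichment. In FOS the CRE core began 64 bases upstream of the start, in FOSB 60 and in FOSL2 66. EGR1 had it at 136 and at 67 bases, the latter just downstream of a pair of CArG boxes. Those CArG boxes were CCATATTAGG, beginning at 105 bases, and CCATATATGG at 83. Within the 250 bases searched, EGR1 alone among the 7 members held a CArG box, as did 1.16% of all promoters. Sequence further upstream was not searched, so a motif missing from a window may still lie beyond it. JUN had the AP-1-like element at 67 bases, which 2.37% of promoters held. The full CRE, TGACGTCA, which contains the core, was found in JUND alone, at 200 bases, against 1.65% of promoters. A TATA box stood 33 bases upstream in FOS, 30 in FOSB and 31 in JUNB, and 10.7% of promoters held one. Neither the AP-1 element proper (TGAGTCA or TGACTCA, in 4.2% of promoters) nor the EGR site (GCGTGGGCG or GCGGGGGCG, in 5.37%) occurred in any of the 7 windows. A match is a description of the letters and no evidence that a factor binds there.

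Signals are the deposited log2 values of each probe set after a small shift that aligned the arrays (between -0.03 and 0.01). Values under a floor of 3.71, the median of all values, were read at the floor, and a difference from a floored value is a bound. A gene was read by its probe set of highest mean signal, and no probe set's level was set against another's, because probes differ in brightness. With 1 array per group, a difference between 2 arrays carries no error and has no replicate check. The linear models (limma) that pooled all 6 arrays left 2 residual degrees of freedom, and their adjusted p-values (Benjamini-Hochberg over 12478 genes) measure departure from that model and not the spread between cultures.

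The line labels held. TWIST1, read by a probe set that does not tell the introduced copy from the cell's own, was 10.70, 10.51 and 10.48 on the control arrays and 11.57, 11.96 and 11.35 on the Twist arrays. All 7 epithelial markers examined were above the floor on the control arrays and 2 of 7 were on the Twist arrays, where CDH1, EPCAM, KRT5, ESRP1 and CLDN4 were at the floor. Of 7 mesenchymal markers, 6 were above the floor on the control arrays (PRRX1 was not) and 7 were on the Twist arrays. PTPRC and CD3E of blood cells, CDH5, VWF and KDR of endothelium, and ADIPOQ and PLIN1 of fat were at the floor on every array. The other markers of those lists on the array were not: PECAM1 was 4.05, 3.82 and 3.80 on the control arrays and 7.64, 7.20 and 7.54 on the Twist arrays, and FABP4 was 8.18, 7.96 and 7.77, then 10.89, 11.00 and 10.62. CD14 was 4.81, 4.46 and 4.35 on the control arrays and at most 3.99 on the Twist arrays. RNA quality was not even: the excess of 3′ over middle probe sets of GAPDH and ACTB was 0.28, 0.45 and 0.835 (log2) on the control arrays in the order DMSO, 5 µM, 10 µM, and 0.955, 0.355 and 0.445 on the Twist arrays. The Twist DMSO array thus had the largest excess, and it is the baseline of every compound difference of the Twist line. Quality-matched values are therefore given beside the Twist line differences of the members above the floor on every array. Other probe sets and the genes around the members are given without them. In the matched values a gene's slope on this excess over the control arrays was subtracted. On those arrays the excess was higher with each compound level, so the slope cannot be told apart from a response of the control line to the compound, and the matched values are given as a description. In extracts of whole cultures, fewer cells that express a gene and less RNA per cell cannot be told apart.

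**Figure D1:**
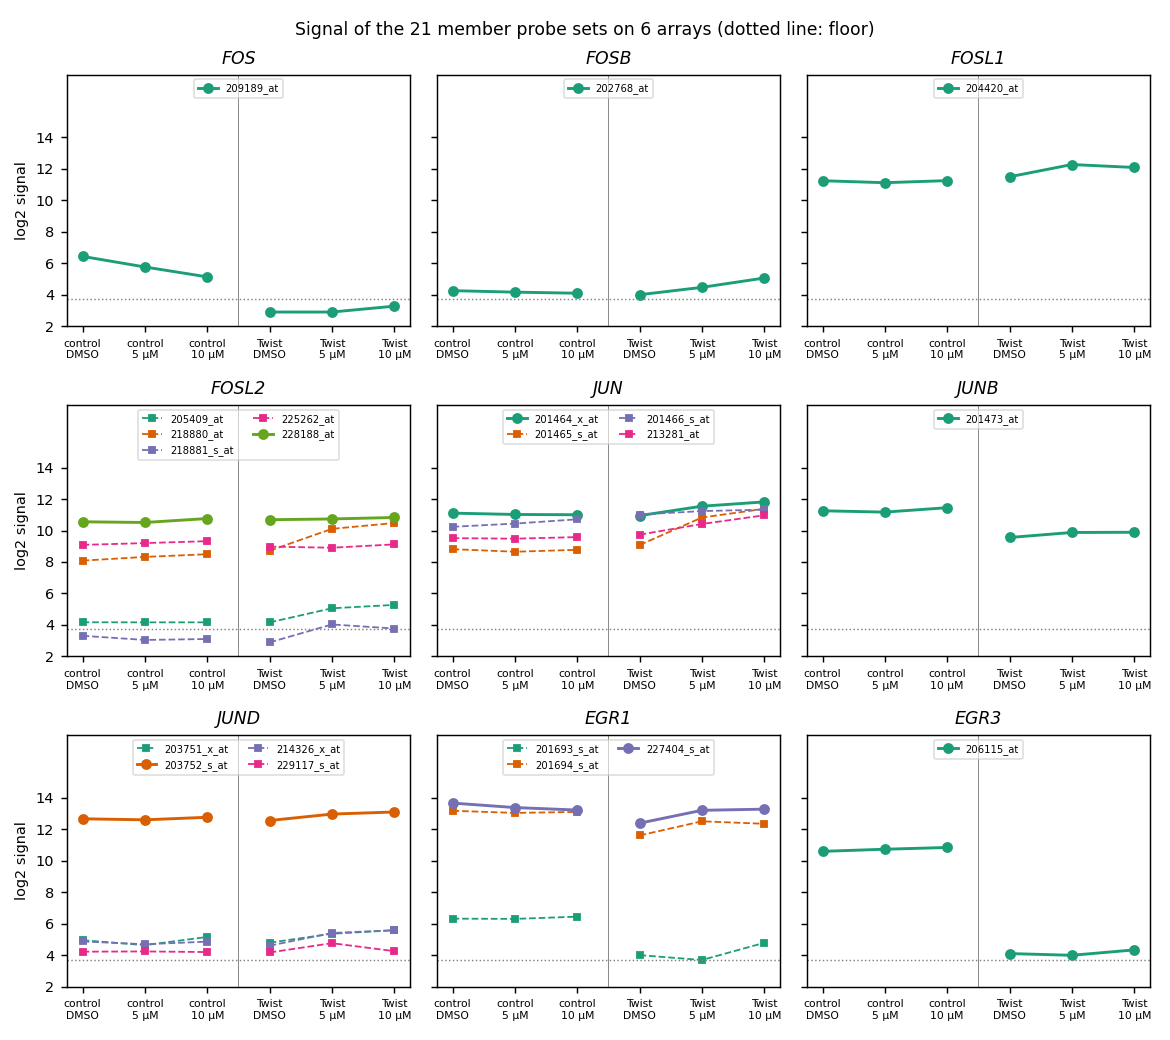
Signal of each of the 21 probe sets on the 6 arrays (log2 signal before the floor is applied, vertical axis; 1 array per group on the horizontal axis; 1 panel per gene, thick line for the probe set read as the gene, dotted line at the floor of 3.71). EGR3 lies between 10.60 and 10.84 on the control arrays and between 3.99 and 4.33 on the Twist arrays, FOS is under the dotted line on all 3 Twist arrays, and the JUN probe sets climb across the Twist arrays.

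The FOS family was described first. FOS, the founding member and a short-lived transcript, had signals of 6.44, 5.76 and 5.13 on the control arrays under DMSO, 5 µM and 10 µM, and was under the floor on all 3 Twist arrays. The control line was thus above every Twist array, and within it the DMSO array was highest and the 10 µM array lowest. Under DMSO, FOS was at least 6.61-fold lower in the Twist line, and under 5 and 10 µM at least 4.14-fold and 2.68-fold lower. The narrowing bound followed the control signals, since the Twist value was the floor each time.

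FOSB, a FOS relative that lasts longer in its truncated form, was faint: 4.26, 4.16 and 4.09 on the control arrays and 4.00, 4.47 and 5.06 on the Twist arrays. The 2 highest values were those of the treated Twist arrays, while the Twist DMSO array was the lowest of all 6, so the lines overlapped. In the Twist line FOSB was 0.47 above DMSO at 5 µM and 1.06 above at 10 µM, a 2.09-fold difference. The quality-matched values were 0.30 and 0.92.

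FOSL1 encodes Fra-1, a FOS protein without the transactivating end of FOS. Its signals were 11.25, 11.12 and 11.25 on the control arrays and 11.50, 12.28 and 12.09 on the Twist arrays. It was the one member read with every Twist array above every control array; 24.3% of the genes tested had that arrangement. The line difference was 0.25 under DMSO, 1.16 at 5 µM and 0.84 at 10 µM, so most of it lay on the treated arrays. Within the Twist line FOSL1 was 0.78 and 0.59 above DMSO at 5 and 10 µM (quality-matched 0.82 and 0.63), and within the control line -0.13 and 0.01.

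FOSL2 encodes Fra-2, and its 5 probe sets did not tell 1 story. The probe set with the highest signal (228188_at) was flat, at 10.56, 10.51 and 10.76 on the control arrays and 10.69, 10.74 and 10.83 on the Twist arrays. By contrast, 218880_at read 8.09, 8.32 and 8.49 on the control arrays and 8.72, 10.11 and 10.48 on the Twist arrays, with no overlap between the lines. Another (205409_at) lay between 4.16 and 4.17 on the control arrays and the Twist DMSO array, and at 5.06 and 5.27 on the treated Twist arrays. The remaining pair were 225262_at, between 8.91 and 9.32 on all 6 arrays, and 218881_s_at, at the floor except on the Twist 5 µM array (4.03) and the Twist 10 µM array (3.77). Across the 5, the difference of the Twist line at 10 µM from DMSO ran from 0.06 to 1.76, with an SD of 0.76 between probe sets. A statement about FOSL2 as a gene therefore depends on the probe set read.

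The JUN family supplies the partners of FOS proteins. JUN itself was read by 201464_x_at at 11.11, 11.02 and 11.00 on the control arrays and 10.95, 11.55 and 11.82 on the Twist arrays. Under DMSO the lines differed by -0.16, and both treated Twist arrays stood above all control arrays. In the Twist line the difference from DMSO was 0.60 at 5 µM and 0.87 at 10 µM (quality-matched 0.50 and 0.79). The other 3 JUN probe sets moved the same way on the Twist arrays by different amounts. For 201465_s_at the signals were 8.82, 8.65 and 8.77 on the control arrays and 9.08, 10.83 and 11.38 on the Twist arrays. For 213281_at they were 9.52, 9.48 and 9.58, then 9.74, 10.42 and 10.97. For 201466_s_at they were 10.24, 10.44 and 10.71, then 11.02, 11.24 and 11.33. In these 3 probe sets every Twist array was above every control array. At 10 µM in the Twist line the 4 probe sets exceeded DMSO by 0.31 to 2.30, with an SD of 0.84 between them, while in the control line the same differences ran from -0.10 to 0.48.

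JUNB, a JUN protein often opposed to JUN in growth control, had signals of 11.26, 11.17 and 11.45 on the control arrays and 9.56, 9.88 and 9.89 on the Twist arrays. The lines did not overlap, and each was nearly level across its own 3 arrays. JUNB was lower in the Twist line by -1.70 under DMSO, -1.30 at 5 µM and -1.56 at 10 µM, and within the Twist line it was 0.32 and 0.33 above DMSO (quality-matched 0.57 and 0.55).

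JUND, the JUN gene least dependent on stimulation, was 12.67, 12.60 and 12.76 on the control arrays and 12.56, 12.97 and 13.10 on the Twist arrays. The lines overlapped through the Twist DMSO array, the lowest of the 6, while the treated Twist arrays were the highest. In the Twist line JUND exceeded DMSO by 0.41 and 0.54 (quality-matched 0.54 and 0.65). The other 3 JUND probe sets were faint, from 4.17 to 5.58, and in the Twist line all 4 were above DMSO, by 0.41 to 0.81 at 5 µM and by 0.08 to 0.98 at 10 µM.

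The EGR family held the widest difference. EGR3, a zinc finger factor induced together with EGR1, had signals of 10.60, 10.73 and 10.84 on the control arrays and 4.10, 3.99 and 4.33 on the Twist arrays. The Twist values were close to the floor, and the gap to the control arrays was -6.50, -6.75 and -6.51 under DMSO, 5 µM and 10 µM. Within either line EGR3 hardly differed between arrays: its control arrays at 5 and 10 µM were 0.14 and 0.25 above DMSO, and its Twist arrays differed from DMSO by -0.11 and 0.23 (quality-matched 0.14 and 0.45). Of the 9 genes, EGR3 had the widest range over the 6 arrays (6.86), followed by FOS (at least 2.73) and JUNB (1.90), and FOSL2 the narrowest (0.32).

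EGR1, the best known member of its family, differed between the lines mainly under DMSO. Its probe set 227404_s_at gave 13.67, 13.38 and 13.22 on the control arrays and 12.39, 13.21 and 13.28 on the Twist arrays. Under DMSO EGR1 was lower in the Twist line by -1.28, whereas the differences on the treated arrays were -0.18 and 0.06. The low array was the Twist DMSO array, from which the treated Twist arrays differed by 0.82 and 0.89, and in the control line the treated arrays differed from DMSO by -0.29 and -0.44. Of the 8 members that could be adjusted for the 3′ excess, EGR1 moved most: quality-matched, the line difference under DMSO was -0.78 and the Twist differences were 0.38 and 0.52. Its other probe sets placed the lines further apart. For 201694_s_at the signals were 13.18, 13.04 and 13.10 on the control arrays and 11.61, 12.51 and 12.35 on the Twist arrays. For 201693_s_at they were 6.32, 6.30 and 6.44, then 4.00, under the floor, and 4.78. Neither of these had an overlap between the lines, and on all 3 probe sets EGR1 was over 2-fold lower in the Twist line under DMSO.

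Whether the lines differed over treatments was tested with limma, with the treatment as a factor. Of 9 members, 3 passed an adjusted p of 0.05 on the lower side of the Twist line and 0 on the higher side; among all genes 14.9% were called lower and 13.7% higher. EGR3 fell by 6.59 ± 0.20 (log2, SE; adjusted p = 2.62e-05) and JUNB fell by 1.52 ± 0.20 (adjusted p = 0.00343). FOS was the other one, but it was above the floor on its control arrays alone, entered the fit through them, and had a constant floor value on the Twist arrays. Its call is therefore no independent test, and the bounds given above are its result. These 3 were the members with every Twist array below every control array, an arrangement that 25.5% of the genes tested had. FOSL1 differed by 0.75 ± 0.24 (adjusted p = 0.0707) and EGR1 by -0.47 ± 0.30 (adjusted p = 0.321), and neither passed. JUN, FOSB, JUND and FOSL2 differed by 0.39, 0.34, 0.20 and 0.14, with adjusted p from 0.315 to 0.644. Without the DMSO pair of arrays, FOSB, FOSL1, JUN and JUND were called higher, so the count of members called higher went from 0 to 4.

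Fitting each probe set instead of each gene gave 5 of 21 probe sets lower and 2 higher, against 13.1% and 12.9% of all probe sets. The lower ones were those of FOS, JUNB and EGR3 and 2 of the 3 of EGR1. Probe set 201693_s_at fell by 2.19 ± 0.23 (limma, adjusted p = 0.00167) and 201694_s_at fell by 0.95 ± 0.26 (adjusted p = 0.0464). The higher ones were FOSL2 218880_at, by 1.47 ± 0.32 (adjusted p = 0.0241), and JUN 201466_s_at, by 0.73 ± 0.18 (adjusted p = 0.0363). So EGR1, FOSL2 and JUN each had probe sets on both sides of the threshold.

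In single pairs of arrays, 4 of 9 members were over 2-fold lower in the Twist line under DMSO (EGR3, FOS, JUNB and EGR1) and 0 were higher, against 13.5% of genes lower and 11.9% higher. At 5 µM 3 members were lower (background 12.6%) and FOSL1 was higher (background 12.1%). At 10 µM 3 were lower (14.1%) and 0 higher (14.8%). The member that left the lower side on the treated arrays was EGR1. By probe set, 6 of 20 were over 2-fold lower under DMSO (background 11.8%) and 0 higher (12.0%). At 5 µM 4 of 21 were lower (11.0%) and 3 higher (11.4%), and at 10 µM 4 were lower (12.6%) and 4 higher (14.2%). The higher ones were probe sets of FOSL1, FOSL2 and JUN. All 3 Twist arrays were above all 3 control arrays in 5 of 21 probe sets and below them in 5, against 24.4% and 24.2% of all probe sets.

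**Figure D2:**
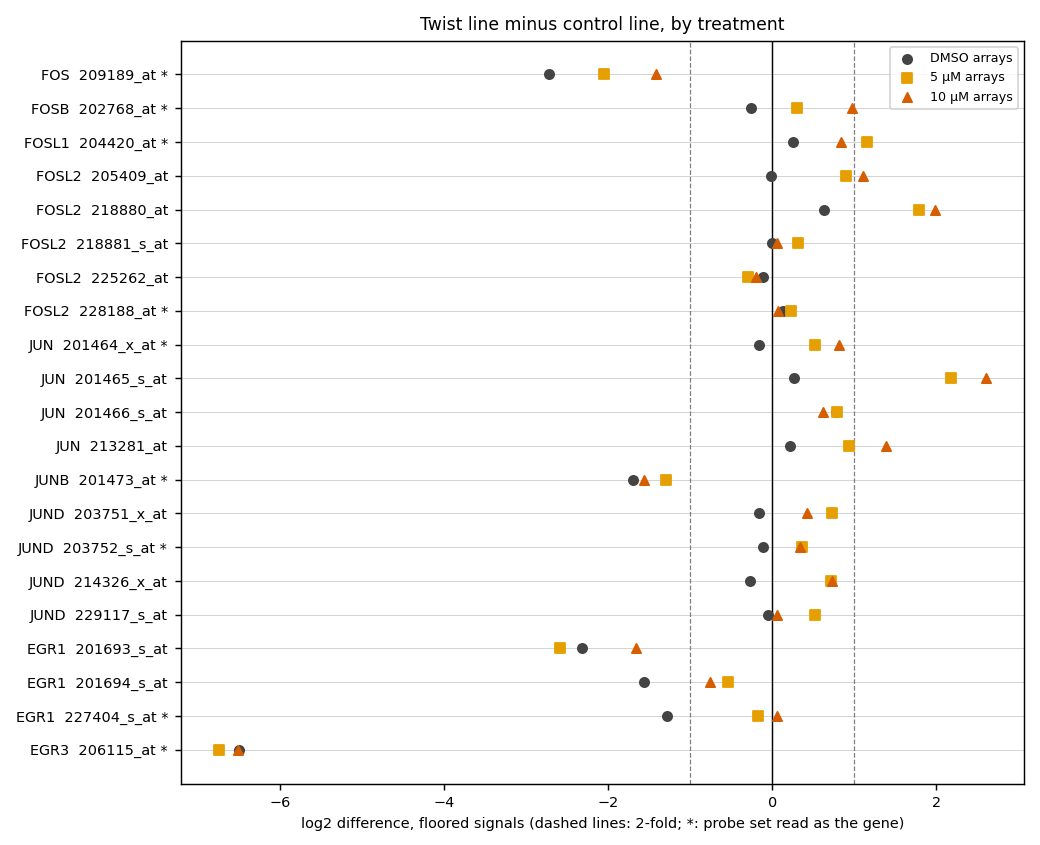
Difference between the lines, Twist minus control (log2 of floored signals, horizontal axis), for the 21 probe sets (vertical axis, an asterisk marks the probe set read as the gene) on the DMSO, 5 µM and 10 µM arrays. Each point is 1 pair of arrays with no error bar, and dashed lines mark 2-fold. EGR3 lies between -6.75 and -6.50 in all 3 pairs, FOS and JUNB lie past the lower dashed line in all 3, and EGR1 227404_s_at moves from -1.28 under DMSO to 0.06 at 10 µM.

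The compound in the Twist line was asked of the same arrays. All compound differences of a line share that line's DMSO array, so the 5 µM and 10 µM differences are not separate evidence of each other. At 10 µM 8 of the 8 members above the floor were above DMSO, with a median of 0.57 against -0.01 over all genes, and FOSB alone passed 2-fold (background 8.04% higher, 8.46% lower). At 5 µM 7 of 8 were above DMSO (EGR3 was not), with a median of 0.44 against 0.00, and 0 passed 2-fold in either direction (background 4.26% and 5.01%). Counted by probe set, 20 of 20 above the floor exceeded DMSO at 10 µM, of which 5 passed 2-fold (background 8.18% higher, 8.38% lower): FOSB, 2 of FOSL2 and 2 of JUN. At 5 µM 17 of 20 did, and 2 passed 2-fold (background 4.26% higher, 4.88% lower). The share of all probe sets above DMSO was not counted, and probe sets of the same gene are not separate results. The smallest differences at 10 µM were 0.06 for FOSL2 218881_s_at, from a DMSO value at the floor, and 0.08 for JUND 229117_s_at. The Twist DMSO array, the baseline of all these values, had the largest 3′ excess. Its part in the direction of the members was not tested beyond the quality-matched values, which at 10 µM were above 0 for each of the 8 and ran from 0.36 for FOSL2 to 0.92 for FOSB, so that 0 passed 2-fold.

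The trend per level in the Twist line, fitted with limma with the levels as 0, 1 and 2, called 3 of 9 members higher and 0 lower, against 10.8% and 11.4% of all genes. FOSB rose by 0.53 ± 0.06 per level (log2, SE; adjusted p = 0.0116), JUN by 0.44 ± 0.09 (adjusted p = 0.0318) and EGR1 by 0.45 ± 0.12 (adjusted p = 0.0454). JUND had a slope of 0.27 (adjusted p = 0.0698), FOSL1 0.30 (adjusted p = 0.173), JUNB 0.17 (adjusted p = 0.283), EGR3 0.12 (adjusted p = 0.487) and FOSL2 0.07 (adjusted p = 0.625), and none of these passed. FOS was at the floor on the 3 arrays and had no slope. By probe set 7 of 21 were called higher (background 10.0%): FOSB, 2 of FOSL2, 3 of JUN and 1 of JUND. The steepest was JUN 201465_s_at, at 1.15 ± 0.17 per level (limma, adjusted p = 0.0208). No EGR1 probe set was called, and 227404_s_at, the one read as the gene, had an adjusted p of 0.0521 in this limma fit. The EGR1 call was thus at the edge of the threshold.

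The shapes of the 3 called slopes differed. FOSB went up by a similar step at each level, while EGR1 stepped up between DMSO and 5 µM and stood level from there, and JUN lay between these. The calls were not firm: with the control DMSO, control 5 µM, control 10 µM, Twist DMSO or Twist 10 µM array left out, 0 members were called, and with the Twist 5 µM array left out 3 were. Over all alternatives the adjusted p ran from 0.0114 to 0.28 for FOSB, from 0.0169 to 0.374 for JUN and from 0.0112 to 0.701 for EGR1.

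**Figure D3:**
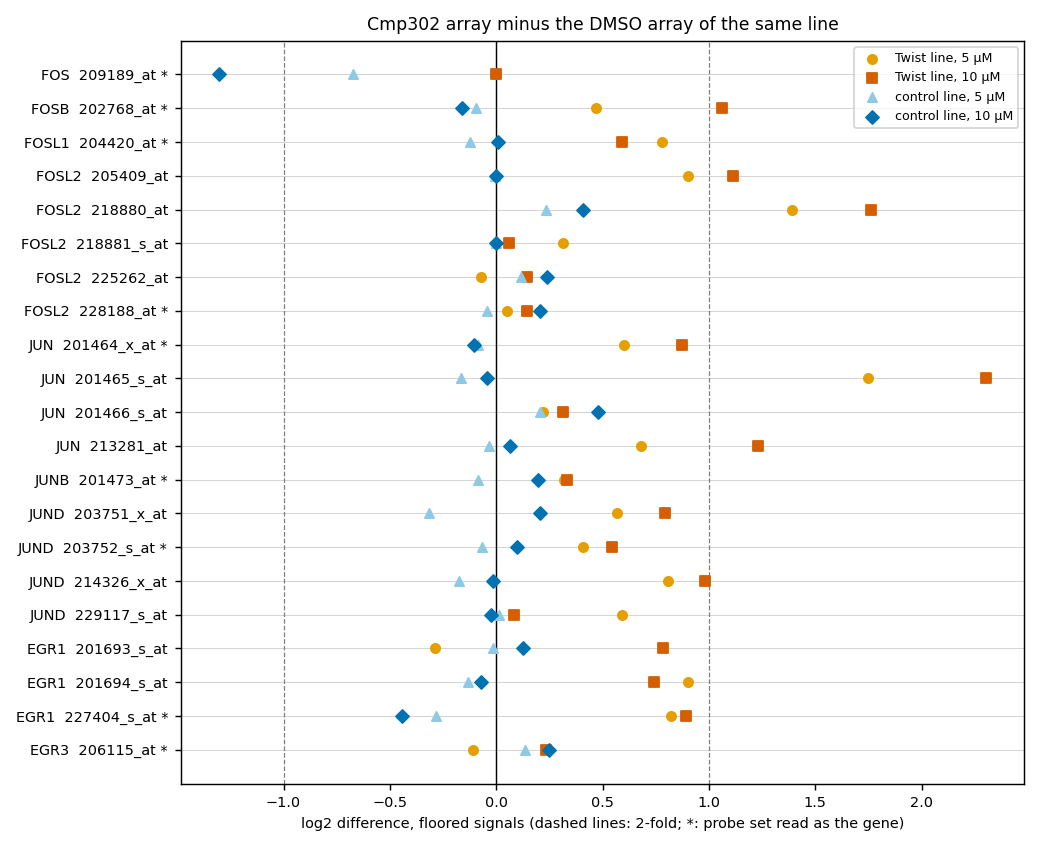
Difference of each Cmp302 array from the DMSO array of its line (log2 of floored signals, horizontal axis) for the 21 probe sets (vertical axis, an asterisk marks the probe set read as the gene). Each point is 1 pair of arrays with no error bar, warm colours stand for the Twist line and blue for the control line, and dashed lines mark 2-fold. At 10 µM the Twist points of 20 probe sets lie to the right of 0, both Twist points of FOS coincide at 0 because FOS is at the floor, and the control points stay between the dashed lines except FOS at -1.30.

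In the control line the members hardly differed between arrays, with the exception of FOS. At 10 µM FOS was -1.30 from DMSO, the 1 member past 2-fold (background 0.259% lower, 0.2% higher), and at 5 µM it was -0.68, when 0 members passed (background 0.0668% and 0.0585%). By probe set the FOS one alone of 20 passed 2-fold at 10 µM (background 0.275% lower, 0.779% higher) and none at 5 µM (0.0468% and 0.151%). The other 8 members lay between -0.44 for EGR1 and 0.25 for EGR3 at 10 µM. The trend called 0 of 9 members and 0 of 12478 genes (0.0% in either direction). FOS had a slope of -0.65 ± 0.07 per level (limma, adjusted p = 0.621) and was the 1 member whose p was under 0.05 before adjustment. Over the alternatives its adjusted p ran from 0.0416, with no filter on low signals, to 0.653. FOS was lower with each level in the line where the 3′ excess was higher with each level, and the part of RNA quality in this was not tested.

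The difference in trend between the lines, Twist minus control, was called for 2 of 9 members, both higher, against 0.745% of genes higher and 0.793% lower. For FOSB it was 0.61 ± 0.09 per level (limma, adjusted p = 0.0468). The other was FOS, for which the model does not test whether the lines differ: its Twist values are all the floor, so its difference of 0.65 is the control slope turned in sign, and that slope was not called. The FOSB difference is made of the Twist slope of 0.53 with a control slope of -0.08. EGR1 (0.67, adjusted p = 0.057) and JUN (0.49, adjusted p = 0.0623) did not pass. The FOSB call lay at the edge of the threshold: by probe set its adjusted p was 0.0534, and 0 of 21 probe sets were called (background 0.447% higher, 0.458% lower). Without the control DMSO, control 5 µM, control 10 µM, Twist DMSO or Twist 10 µM array 0 members were called, and without the Twist 5 µM array 4 were. In these fits too, the residual error came from the line that kept all its arrays.

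The genes around the members were taken from 9 lists: upstream kinases and factors, inhibitors, partners and target genes. Some of those tested were, like FOS, at the floor on every array of 1 line and entered the fits through the other line alone. Calls of such genes are no independent tests, and their differences enter the list medians as bounds. Upstream, EGF receptors and ligands had 4 of 8 tested lower and 1 higher in the Twist line in the fit over treatments, with a median of -2.12 against -0.01 over all genes. TGFA, an EGF receptor ligand, was between 11.42 and 11.48 on the control arrays and at the floor on the Twist arrays. ERBB3, a receptor of the family, was at least 9.33 on the control arrays and at most 3.82 on the Twist arrays. HBEGF, the heparin-binding EGF-like ligand and itself an early gene, was 11.22, 10.94 and 10.91 on the control arrays and 6.38, 7.93 and 8.77 on the Twist arrays. HBEGF was thus low in the Twist line throughout and highest there at 10 µM. Its Twist trend rose by 1.2 ± 0.13 per level (limma, adjusted p = 0.0108), and the trends of the lines differed by 1.35 ± 0.19 (adjusted p = 0.0438). EGFR, the receptor, was 9.81, 10.95 and 11.11 on the Twist arrays, and its trend there rose by 0.65 ± 0.15 (adjusted p = 0.0345). On the control arrays EGFR was 10.94, 10.78 and 10.47.

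Of 15 MAP kinases tested, the Twist line had 3 higher and 4 lower. MAPK13, the p38 delta kinase of epithelia, was lower in the Twist line by -6.86 under DMSO and RPS6KA1, an ERK-activated kinase, by -2.83. In the Twist trend 1 of the 15 was called higher and 3 lower. The list of feedback inhibitors of ERK signalling also holds ETV4 and ETV5, which are transcription factors and not inhibitors. It had 2 of 15 higher between the lines, SPRY2 and ETV5, and 0 lower. SPRY2, a Sprouty inhibitor of receptor signalling, was 1.28 higher in the Twist line under DMSO. In the Twist trend 5 of the 15 fell and 0 rose. SPRED1, SPRED2 and RASA2, which restrain RAS, fell by 0.69 ± 0.15, 0.63 ± 0.13 and 0.62 ± 0.13 per level (limma, adjusted p = 0.0306, 0.0302 and 0.0302). Their list median was -0.12 per level, against 0.00 over all genes. SPRED1 was 12.11, 10.92 and 10.72 on the Twist arrays and 10.92, 11.12 and 11.27 on the control arrays.

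Of SRF and the factors that act with it, 1 of 10 was called higher and 0 lower between the lines, and in the Twist trend 1 rose and 2 fell. SRF was 9.73, 9.78 and 9.84 on the Twist arrays and 10.15, 9.97 and 10.10 on the control arrays. ETS2, an ETS-family factor, was 11.39, 12.69 and 12.80 on the Twist arrays and rose by 0.71 ± 0.16 per level (limma, adjusted p = 0.0366). ELK3, a ternary complex factor that can repress, was 13.42, 12.47 and 12.24 and fell by 0.59 ± 0.12 (adjusted p = 0.0278). Among all genes 10.8% were called higher and 11.4% lower in the Twist trend, so these few calls are no result about the list. The EGR co-repressor list, made of NAB1, NAB2, ID2, ID3 and PTPN1, had 1 of 5 called higher in each of these fits. The called gene was ID2 between the lines and ID3 in the Twist trend. NAB1 and NAB2, the genes of the list that encode EGR co-repressors, were called in neither, so the calls were not of co-repressors. ID2, a dominant-negative helix-loop-helix protein, was at the floor on the control arrays and between 5.44 and 5.55 on the Twist arrays.

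The other immediate early genes had 6 of 25 higher and 3 lower between the lines. DUSP1, the phosphatase that inactivates p38 and JNK, was 6.90, 6.68 and 6.74 on the control arrays and 9.14, 9.70 and 9.67 on the Twist arrays. CCN2, a matricellular protein, was 1.89 higher in the Twist line under DMSO. MYC was 11.64, 11.16 and 10.15 on the control arrays and 9.28, 10.47 and 10.65 on the Twist arrays, so the order of the lines at 10 µM was the opposite of that under DMSO. In the Twist trend 7 of the 25 rose and 1 fell, with a median of 0.15 per level. KLF2, a zinc finger factor, was at the floor on all control arrays and the Twist DMSO array and 5.36 and 5.81 on the treated Twist arrays. NR4A3, an orphan nuclear receptor, was at the floor on those same arrays and 4.22 and 5.53 on the treated Twist arrays.

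The basic leucine zipper partners and competitors of AP-1 had 4 of 13 higher and 0 lower between the lines and, in the Twist trend, 6 higher and 1 lower. CREB5, a CRE-binding partner of JUN, was between 7.48 and 7.55 on the control arrays and between 11.12 and 11.44 on the Twist arrays. ATF3, an early gene whose protein pairs with JUN, was 5.55, 10.10 and 11.09 on the Twist arrays and between 4.62 and 5.01 on the control arrays. DDIT3, the stress factor CHOP, was 6.16, 11.44 and 11.96 on the Twist arrays and between 5.26 and 5.62 on the control arrays. ATF3 rose by 2.77 ± 0.44 per level in the Twist line (limma, adjusted p = 0.019) and DDIT3 by 2.90 ± 0.58 (adjusted p = 0.0282), whereas the difference in trend between the lines had an adjusted p of 0.0551 and 0.0676. MAFG, a small MAF protein, rose by 0.73 ± 0.12 (adjusted p = 0.0221). Beside ATF3, whose 10 µM array was 5.54 above DMSO, the 0.87 of JUN and 1.06 of FOSB on the same arrays were small.

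Downstream, AP-1 target genes had 7 of 16 lower and 4 higher between the lines, with a median of -0.45. The 3 widest were IVL and SPRR1B of the cornified envelope and the metalloproteinase MMP10, all at the floor on every Twist array. Their control signals were 9.27 to 9.62 for IVL, 13.24 to 13.67 for SPRR1B and 8.11 to 8.59 for MMP10. These are genes of differentiating epithelium, and the epithelial markers moved with them (7 of 7 lower). The part of the epithelial state in the target counts was not tested. MMP9, also called lower, was at the floor on every Twist array too. Like that of FOS, the calls of IVL, SPRR1B, MMP10 and MMP9 are no independent tests. In the Twist trend 1 of the 16 rose and 1 fell: the chemokine CXCL8, at 10.92, 11.69 and 12.05 on the Twist arrays, rose by 0.57 ± 0.12 per level (limma, adjusted p = 0.0294), and the cyclin CCND1 fell by 0.36 ± 0.09 (adjusted p = 0.0393). EGR target genes had 5 of 10 lower and 0 higher between the lines, with a median of -0.83. PDGFA, a growth factor, was 11.89, 11.54 and 11.39 on the control arrays and 8.48, 8.76 and 8.27 on the Twist arrays, and TNFSF10, the death ligand TRAIL, was at the floor on the Twist arrays. In the Twist trend 1 of the 10 rose and 1 fell, the latter being THBS1, thrombospondin, at 13.13, 11.76 and 11.08 on the Twist arrays. THBS1 fell by 1.02 ± 0.11 per level (adjusted p = 0.0108), and its trend differed between the lines by -1.21 ± 0.16 (adjusted p = 0.0406).

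In the control line 0 genes of any of the 9 lists were called with limma, and 0 to 3 genes of a list had a p under 0.05 before adjustment. MYC had a slope of -0.74 ± 0.16 per level there (limma, adjusted p = 0.621). The lists were drawn up with earlier results known, and their counts stand beside backgrounds of 13.7% higher and 14.9% lower between the lines and 10.8% higher and 11.4% lower in the Twist trend.

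**Figure D4:**
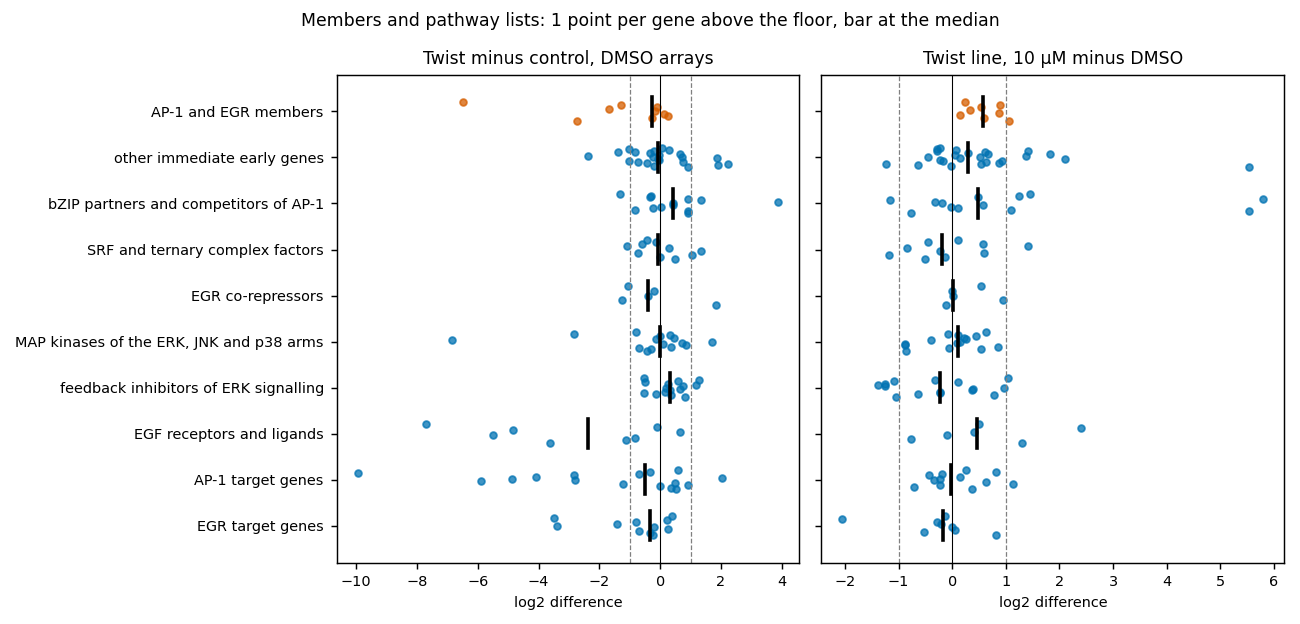
Differences of the genes of the members' list and the 9 lists around it (vertical axis) between the lines under DMSO (left panel) and between 10 µM and DMSO in the Twist line (right panel), in log2 on the horizontal axes, which differ in range. Each point is 1 gene above the floor from 1 pair of arrays, bars mark list medians and dashed lines 2-fold. In the right panel the members lie right of 0, ATF3 (in 2 lists, 5.54) and DDIT3 (5.80) lie furthest right, and 5 feedback inhibitors of ERK signalling lie past the lower dashed line.

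The profiles most like those of the 3 widest-ranging members were sought among the genes above the floor on all 6 arrays (10786 or 10787 of them), by the root mean square difference between profiles each centred on its own mean. For EGR3 the nearest were DMD (0.153), KRT8 (0.224), AFAP1L2 (0.24), TPD52L1 (0.245) and ST6GALNAC2 (0.278). DMD, the dystrophin gene, was 10.71, 10.98 and 11.18 on the control arrays and 4.41, 4.24 and 4.22 on the Twist arrays, and KRT8, a keratin of simple epithelia, was 12.37, 12.05 and 12.19, then 5.51, 5.87 and 5.68. In all 5 every control array stood above every Twist array. For JUNB they were EPS8L2 (0.0572), PLA2G12A (0.0672), SPTLC2 (0.0867), SLC4A11 (0.0955) and ANKS1A (0.0986). EPS8L2 was 9.54, 9.46 and 9.64 on the control arrays and 7.92, 8.23 and 8.22 on the Twist arrays. For FOS they were BCL7A (0.14), RASSF5 (0.155), NEO1 (0.222), TNFRSF10A-DT (0.223) and HMOX2 (0.236). BCL7A was 7.80, 7.12 and 6.76 on the control arrays and 4.95, 4.99 and 4.92 on the Twist arrays. These 5 had, like FOS, a control DMSO array above the control 10 µM array and Twist arrays below all 3. The neighbours of each member were chosen for nearness to its profile, so arrangements shared with it follow from the choice. The FOS profile held the floor on all 3 Twist arrays, so on those arrays the match is to a constant.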

How the data were processed

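The data were 6 Affymetrix U133 Plus 2.0 arrays of total RNA, with 1 array in each group. The values deposited by the authors were read as log2 signals from their range. The tool they list is GCOS 1.2 (per the submitters' processing notes). Their background correction and normalisation were not given in the sources used here, and precision is limited by the number of arrays. Of 54675 probe sets, 62 controls were left out, 41091 had 1 gene symbol in GEO's platform annotation, 1801 several and 11721 none, and 41037 symbols were updated through their Entrez ID. Arrays were shifted to a common centre, taken over probe sets above the median, and floored at the median of all values (3.71). Each of 19775 genes was read by its probe set of highest mean signal.

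Genes that exceeded the floor on 2 or more arrays (12478) were fitted with limma 3.58.1 (R 4.3.3, lmFit and eBayes with trend), with line and treatment, or with line, level (0, 1, 2) and their interaction. Adjusted p under 0.05 or, in pairs of arrays, 2-fold was the threshold. The models were tested on simulated data. From each list up to 3 genes with the widest difference in a comparison could be named, and the 5 nearest profiles for 3 members. The members and lists (138 symbols, 123 on the array) were chosen with earlier results of these data known. The motifs TGACGT and TGACATCA were added after the sequences were seen. Protein sequences were not used here. Alternatives changed the scaling, floor, probe set, filter, level coding, RNA-quality matching and arrays used.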

Additional observations from a re-analysis of the deposited data

Results flagged for a closer look

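The test of the difference in trend per level between the lines passed for 2 members. For FOSB the Twist trend exceeded the control trend by 0.61 per level (log2), with the control arrays at 4.26, 4.16 and 4.09 and the Twist arrays at 4.00, 4.47 and 5.06. For FOS the difference was 0.65, with the control arrays at 6.44, 5.76 and 5.13. Every Twist array was at the floor for FOS, so its Twist trend is 0 by construction and the value does not show that the lines differ. Both rest on 1 array per group.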

How the results depend on the processing

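No called value changed sign under any alternative run. Of 845 values compared, called and not called together, 26 changed sign, all of them values that were not called. The Twist slope of FOSL1 went from 0.30 to -0.19 without the Twist DMSO array, its difference in trend from 0.29 to -0.19, and the Twist slope of EGR3 from 0.12 to -0.11 without the Twist 10 µM array. The counts of members called lower between the lines stayed within 1.5 times the reported 3 (2 to 4), and JUNB and EGR3 passed in all 10 alternatives each. FOS missed there in 1 of 9, with no filter (adjusted p = 0.0649). Members called higher between the lines were 2 with the median over probe sets, 2 with probe sets in place of genes, and 0 to 4 with 1 treatment pair left out. Members called in the Twist trend, 3 as reported, were 0 with no filter and 0 to 3 with 1 array left out. In the difference in trend, 2 as reported, they were 0 with the floor at the 65th percentile, 0 with probe sets in place of genes, 0 with no filter, and 0 to 4 with 1 array left out. With that higher floor FOS and FOSB did not pass the filter and were not fitted, so neither could be called. In the control trend 1 was called lower with no filter. With levels coded 0, 1 and 1, the Twist trend called 4 members and the difference in trend 3. In pairs of arrays the median over probe sets gave 2 members over 2-fold higher between the lines at 5 µM, 1 at 10 µM and 2 in the Twist line at 10 µM. Leaving out probe sets with the suffixes _s_at and _x_at gave 1 between the lines at 10 µM and 2 in the Twist line at 10 µM, and left EGR1 and JUND without a value. In the Twist line at 10 µM the count was 0 with the floor at the 65th percentile and 0 with quality matching. In the control line at 10 µM it was 0 with the higher floor. The cause of the other changes was not tested. Fits with arrays left out also had fewer residual degrees of freedom than the full fit. With no replicate arrays, none of these counts measures the spread between cultures, and signals near the floor (FOS, FOSB, EGR3 in the Twist line) limit the size of a difference. No paired analysis was possible because each group has 1 array and the labels give no replicate numbers; the lines were paired by treatment in the line fit alone.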
